A study of Bos taurus with 138 samples.

Results

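The maturation of the bovine oocyte was followed in 6 whole-oocyte (transcriptome) libraries, of 138 libraries in the series. They were chosen by their labels, which name a stage and no gradient fraction. Oocytes at the germinal vesicle (GV) stage, arrested in the first meiotic prophase, gave 3 libraries. Oocytes at metaphase II (MII), the stage that awaits fertilization, gave the other 3. GV oocytes had been aspirated with their surrounding cumulus cells from the follicles of slaughterhouse Bos taurus ovaries, and MII oocytes had matured in vitro from such complexes. Both stages were treated with cycloheximide to halt ribosomes and then with protease to remove the zona pellucida. Each library is a pool of oocytes from the batches used for polysome gradients, and breed, age and donor were not given in the sources used here, so the p-values measure the spread between pools, which may in part be technical.

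A fully grown oocyte is close to transcriptional silence and carries a store of maternal mRNA. During maturation its nuclear envelope breaks down under cyclin-dependent kinase activity, the first polar body is shed, and the MOS and MAPK pathway together with inhibitors of the anaphase-promoting complex holds the cell at metaphase II. Stored mRNAs are then translated, deadenylated or degraded in a selective way, with the CCR4-NOT deadenylase and its adaptor BTG4 among the known agents of maternal mRNA clearance. The libraries were primed on poly(A), so that a longer or shorter poly(A) tail may change how well an mRNA was counted. Tail length was not measured, and its part in the changes below was not tested.

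The libraries held 9069383 to 11414406 counts, and 10637 to 11030 genes reached 1 CPM, a count scaled to its library's total, in GV against 9697 to 10342 in MII. Pearson's r of log2 CPM was 0.974 to 0.986 between libraries of a stage and 0.846 to 0.878 between stages, as a description over the genes tested. All 18 oocyte marker genes were counted in each library, and their summed level was 27340 to 30100 CPM in GV and 27250 to 32140 CPM in MII. Markers of cumulus and granulosa cells were not equal between stages, and their values stand beside the rises they move with.

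Of 16706 genes in the table, 10959 had enough counts to be tested by edgeR's quasi-likelihood test. At an adjusted p below 0.05 and a fold change above 2, 2907 genes (26.5% of those tested) were lower in MII and 1428 (13.0%) were higher. Levels are CPM scaled by the TMM method, which sets the bulk of genes at equal levels, so that each change is relative to the other mRNAs and a loss shared by all mRNAs would not be seen. The share of calls that were lower was 67.1% with this scaling, 79.1% with library totals alone (3298 lower and 870 higher) and 52.1% when all 18 transcriptomes of the series were scaled and fitted together (2460 lower and 2261 higher). The median log2 change of all genes tested was -0.08, -0.29 and 0.07 in these 3 fits. The third fit tested 13264 genes, so that its calls and median cover a larger set. Over the genes of the first fit its median was 0.123. The 3 GV and 3 MII values did not overlap in 2856 of the genes called lower and in 1397 of those called higher, against 35.9% and 29.8% of all genes tested in the corresponding direction.

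The falls were larger than most of the rises. A fall of more than 4-fold was fitted for 1252 genes and a rise of that size for 191. Genes called lower held 24.6% ± 0.386 of all counts in GV (SD, n = 3) and 6.05% ± 0.979 in MII. Genes called higher held 13.9% ± 0.605 of counts in GV and 29.0% ± 2.15 in MII. Above 1 CPM in GV falls came from each level of abundance: among genes at 1 to 10 CPM 29.4% were lower, at 10 to 100 CPM 26.3%, at 100 to 1000 CPM 26.1%, and of the 106 genes above that 24 were lower. Rises had another distribution, as 198 of the 356 tested genes under 1 CPM in GV were higher and 6 (1.69%) lower, since such a gene passed the filter mostly through its MII counts. For this reason the 198 genes are described apart from the 1230 other genes called higher.

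**Figure D1:**
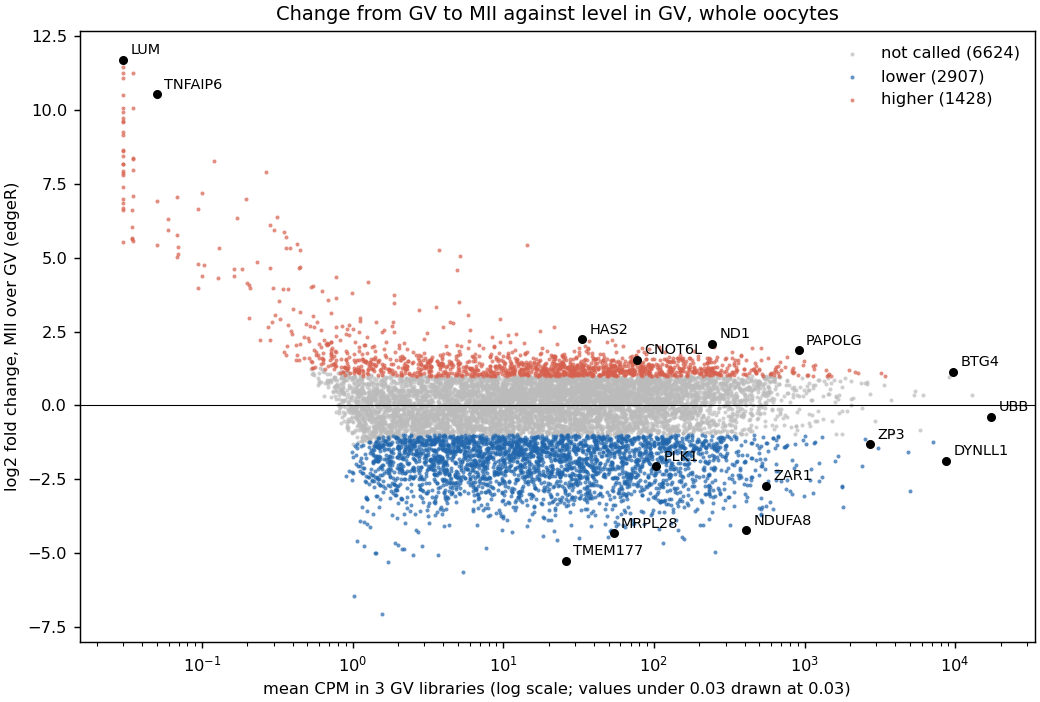
Log2 fold change from GV to MII (vertical axis, edgeR) against the mean CPM in 3 GV libraries (horizontal axis, log scale) for each of 10959 genes, with genes called lower in blue, higher in red and others in grey. Falls reach past a log2 change of -4 across a wide range of levels, while 81 of the 86 rises past 4 sit at GV levels under 1 CPM.

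Among mRNAs with at least 20 CPM in GV, the largest falls included those of TMEM177, TMEM11, MALSU1, POLD2, DRC1, KIF19, C25H7orf50, DDX39A, MRPL28, RMND5B, MRPL36, NDUFA8, IMP4 and ACAA1. TMEM177, a mitochondrial inner membrane protein that takes part in cytochrome c oxidase assembly, had 33.1, 24.8 and 20.6 CPM in the GV libraries and 1.10, 0.613 and 0.316 CPM in the MII libraries (log2 fold change -5.25, SE 0.36, adjusted p = 1e-10). TMEM11, which shapes mitochondrial inner membrane folds, had 248, 282 and 231 CPM in the GV libraries and 7.90, 9.36 and 7.05 CPM in the MII libraries (log2 fold change -4.96, SE 0.23, adjusted p = 8.5e-13). The MII values of both genes lay far below all GV values, and the rule for the largest falls required that the groups not overlap. MALSU1, an assembly factor of the large mitochondrial ribosomal subunit, fell from 116 ± 48.3 to 4.59 ± 0.779 CPM (log2 fold change -4.65). NDUFA8, a subunit of respiratory complex I, had 322, 541 and 372 CPM in the GV libraries and 29.8, 21.0 and 15.5 CPM in the MII libraries (log2 fold change -4.22, SE 0.27, adjusted p = 4.7e-11). DDX39A, an RNA helicase of mRNA export, had 146, 171 and 147 CPM in the GV libraries and 7.20, 8.22 and 5.90 CPM in the MII libraries (log2 fold change -4.44, SE 0.23, adjusted p = 1.7e-12). IMP4, part of the nucleolar machinery that processes ribosomal RNA, fell from 145 ± 10.5 to 7.90 ± 0.853 CPM (log2 fold change -4.20). POLD2, a subunit of DNA polymerase delta, fell from 22.8 ± 4.10 to 0.969 ± 0.658 CPM, and ACAA1, a thiolase of peroxisomal fatty acid oxidation, fell from 108 ± 25.0 to 6.0 ± 1.26 CPM. All of these named genes stayed lower, past the adjusted p threshold, in every alternative fit that was run.

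Nuclear genes for mitochondrial proteins formed the lists with the lowest medians. Of 78 mitochondrial ribosomal protein genes, all tested, 44 fell (56.4%, against 26.5% of all genes tested) and 0 rose (against 13.0%). Of the 78, 64 had a value below 0 (median log2 change -1.34, against -0.08 for all genes). By edgeR 0 were also higher past that fold at an unadjusted p under 0.05 (8 at any fold), and 0 by DESeq2 and by limma voom. The large subunit had 29 of 48 genes lower and the small subunit 15 of 30. MRPL28 had 59.6, 55.5 and 47.6 CPM in the GV libraries and 2.10, 4.38 and 1.47 CPM in the MII libraries (log2 fold change -4.32, SE 0.30, adjusted p = 1.1e-10), and MRPL36 fell from 51.0 ± 18.2 to 2.65 ± 1.05 CPM (log2 fold change -4.24). The GV and MII values did not overlap in either gene, which the rule for the largest falls required. With the other scalings, 42 to 47 of the 78 genes were lower and 0 higher.

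Nuclear subunits of oxidative phosphorylation, the chain that makes ATP in mitochondria, had 40 of 82 tested genes lower, 1 higher and a median of -0.91. The shares were 48.8% lower and 1.22% higher, against 26.5% and 13.0% of all genes tested. Complex I had 20 of 38 genes lower, complex II 1 of 4, complex III 4 of 9, complex IV 6 of 12 and the ATP synthase 9 of 18. NDUFS7, an iron-sulfur subunit of complex I, had 114, 178 and 128 CPM in the GV libraries and 11.1, 9.54 and 7.69 CPM in the MII libraries (log2 fold change -3.89, SE 0.24, adjusted p = 2.8e-11). The exception was NDUFB1, a small complex I subunit, with 44.3, 53.7 and 83.0 CPM in the GV libraries and 204, 123 and 68.0 CPM in the MII libraries (log2 fold change 1.13, SE 0.29, adjusted p = 0.0019). Its 3 MII values spread widely and MII replicate C overlapped the GV range. The call was lost with all 18 transcriptomes and the pools in the fit (adjusted p = 0.0734), and over all alternatives its log2 change was 0.68 to 1.47.

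The 13 protein genes of the mitochondrial genome went the other way. By edgeR 0 were lower, also at an unadjusted p under 0.05 and by DESeq2 and limma voom. Higher calls numbered 9 (69.2%, against 13.0% of all genes tested), and all 13 had values above 0 (median log2 change 1.15). Together they held 0.435% to 0.530% of counts in GV and 0.691% to 1.31% in MII. ND1, a core subunit of complex I, had 180.1, 239 and 315 CPM in the GV libraries and 1292, 1006 and 824 CPM in the MII libraries (log2 fold change 2.09, SE 0.25, adjusted p = 2.3e-07), and COX1, the catalytic subunit of cytochrome c oxidase, had 899, 1128 and 963 CPM in the GV libraries and 3404, 2688 and 2416 CPM in the MII libraries (log2 fold change 1.51, SE 0.24, adjusted p = 1.2e-05). Every MII library was above every GV library for both. The number called was 5 with library totals alone and 11 with size factors of the DESeq2 kind, and the direction held in both. Mitochondrial transcripts carry short poly(A) tails of their own, and the part of priming in these values was not tested.

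Enzymes of glycolysis, the pentose phosphate path and the citrate cycle had 17 of 44 tested genes lower and 1 higher (median -0.68). The shares were 38.6% and 2.27%, against 26.5% and 13.0% of all genes tested. IDH3G, a subunit of the NAD-dependent isocitrate dehydrogenase, fell from 47.2 ± 4.03 to 2.90 ± 0.718 CPM (log2 fold change -4.01, SE 0.26, adjusted p = 4.4e-11), and MDH2, the mitochondrial malate dehydrogenase, fell from 247 ± 12.2 to 24.9 ± 7.08 CPM (log2 fold change -3.31). SUCLG2, a subunit of succinyl-CoA synthetase, was the one that rose, from 82.1 ± 9.13 to 172 ± 15.7 CPM (log2 fold change 1.07, SE 0.19, adjusted p = 5.6e-05). Among antioxidant enzymes 8 of 26 were lower and 3 higher (30.8% and 11.5%), shares near those of all genes tested. GPX4, the peroxidase that repairs lipid peroxides, had 414, 643 and 492 CPM in the GV libraries and 46.3, 42.7 and 32.6 CPM in the MII libraries (log2 fold change -3.67, SE 0.24, adjusted p = 4.9e-11), with no MII value near the GV range. PRDX2, a cytosolic peroxiredoxin, fell from 5024 ± 1171 to 679 ± 22.9 CPM (log2 fold change -2.89), while CAT, catalase, rose from 131 ± 7.39 to 362 ± 106 CPM (log2 fold change 1.47).

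**Figure D2:**
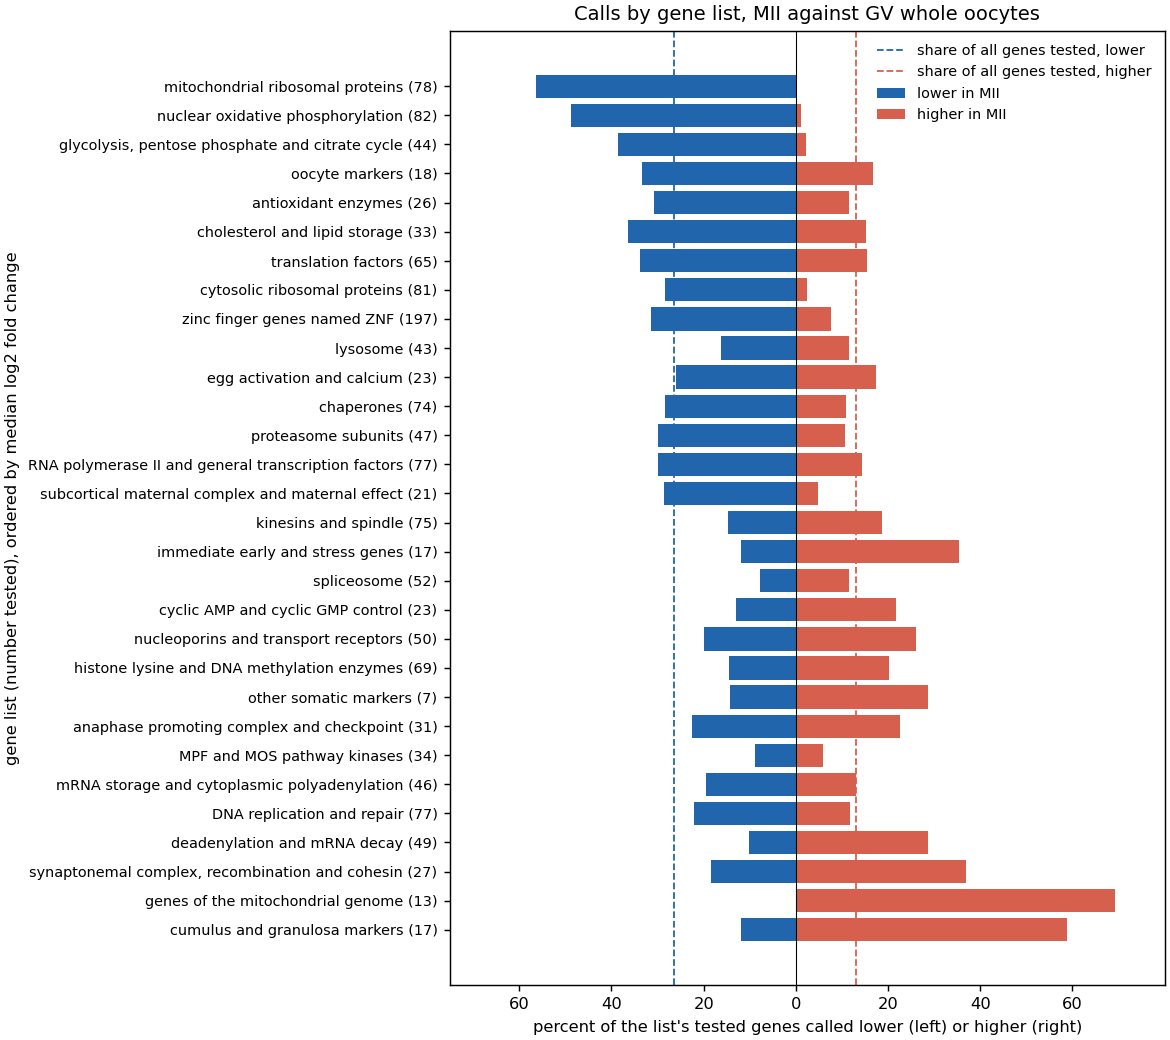
Percent of the tested genes of each of 30 lists that were called lower (bars to the left) or higher (bars to the right) in MII, with the number tested in brackets and the share over all genes tested, 26.5% lower and 13.0% higher, as dashed lines. Mitochondrial ribosomal proteins and oxidative phosphorylation stand past the lower share, and the mitochondrial genome and cumulus markers past the higher share.

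The machinery of translation was split. Of 81 tested cytosolic ribosomal protein genes 23 were lower and 2 higher, with a median of -0.27. The share of lower calls, 28.4%, was near the 26.5% of all genes tested. The share of higher calls, 2.47%, was below the 13.0% of all genes tested. RPL18 fell from 361 ± 109 to 70.1 ± 18.7 CPM (log2 fold change -2.36, SE 0.25, adjusted p = 4e-08). Ribosomal protein genes have processed copies in the genome, and counts shared with such copies make single values of this family uncertain. Of 65 translation factor genes 22 were lower and 10 higher (33.8% and 15.4%, against 26.5% and 13.0% of all genes tested). EIF6, which keeps the large ribosomal subunit from joining the small one, had 258, 330.4 and 280.2 CPM in the GV libraries and 23.5, 30.6 and 23.3 CPM in the MII libraries (log2 fold change -3.49, SE 0.22, adjusted p = 3.5e-11). The initiation factor eIF3 had 7 of 13 subunits lower and 2 higher (EIF3E and EIF3L, at log2 1.03 and 1.12), and eIF2B, the exchange factor that recharges eIF2, had 4 of 5 lower. EIF2A rose from 127 ± 26.4 to 391 ± 131 CPM (log2 fold change 1.63).

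Genes of RNA polymerase II, Mediator and the general transcription factors had 23 of 77 lower and 11 higher, shares of 29.9% and 14.3% that are near those of all genes tested (26.5% and 13.0%). POLR2G, a dissociable polymerase subunit, had 404, 639 and 494 CPM in the GV libraries and 61.2, 43.9 and 29.8 CPM in the MII libraries (log2 fold change -3.51, SE 0.26, adjusted p = 2.9e-10), and POLR2I, a small core subunit, fell from 277 ± 96.5 to 35.2 ± 1.12 CPM. GTF2H3, a subunit of TFIIH, rose from 62.0 ± 13.6 to 252 ± 83.1 CPM (log2 fold change 2.03), and MED13, of the Mediator kinase module, rose from 21.1 ± 5.02 to 65.4 ± 5.27 CPM. Of 197 tested zinc finger genes named ZNF, 62 fell and 15 rose (31.5% and 7.61%). Their median of -0.25 was -0.14 to -0.46 with other scalings. Among enzymes of histone and DNA methylation and acetylation, 10 of 69 were lower and 14 higher (14.5% and 20.3%). KAT8, a histone H4 acetyltransferase, fell from 107 ± 4.70 to 14.1 ± 0.677 CPM (log2 fold change -2.92, SE 0.20, adjusted p = 9.2e-11), SIRT2, a deacetylase, fell from 21.1 ± 1.69 to 2.19 ± 0.344 CPM, and KMT2A, a histone H3 lysine methyltransferase, rose from 2.77 ± 0.732 to 9.22 ± 0.447 CPM (log2 fold change 1.72, lost with all 18 transcriptomes and the pools in the fit at an adjusted p of 0.286).

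Proteins that decay, store or polyadenylate mRNA showed both directions. In the list of deadenylation and decay factors 14 of 49 tested genes rose (28.6%, against 13.0% of all genes tested) and 5 fell (10.2%, against 26.5%), with a median of 0.68. BTG4, the adaptor that recruits CCR4-NOT to maternal mRNA, had 7466, 12150 and 9441 CPM in the GV libraries and 20320, 17150 and 26460 CPM in the MII libraries (log2 fold change 1.14, SE 0.30, adjusted p = 0.0024), and its share of all counts was 1.03% in GV and 1.96% in MII. CNOT6L, a catalytic deadenylase of CCR4-NOT, had 73.3, 79.7 and 80.2 CPM in the GV libraries and 242, 213 and 225 CPM in the MII libraries (log2 fold change 1.54, SE 0.19, adjusted p = 4.4e-07), and CNOT7, another catalytic subunit, rose from 235 ± 43.3 to 474 ± 74.8 CPM (log2 fold change 1.01, SE 0.21, adjusted p = 0.00029). All 3 MII values were above all 3 GV values for each of these genes. Of 11 CCR4-NOT genes 4 rose (CNOT3, CNOT6, CNOT6L and CNOT7) and 1, the scaffold CNOT1, fell from 114 ± 14.8 to 55.3 ± 9.32 CPM (log2 fold change -1.04). The other risers of the list were PAN2 and PAN3, which trim long tails, the exonuclease XRN1, the decapping factor DCP1A, the uridylyltransferase TUT7, SMG1, BTG1, BTG3 and TOB2. LSM3, part of a ring that binds shortened tails, fell from 447 ± 91.2 to 83.6 ± 30.9 CPM (log2 fold change -2.42). In the fit with all 18 transcriptomes, which shares 1 estimate of the spread with embryos, BTG4 had a log2 change of 1.34 with an adjusted p of 0.15. With library totals alone 8 rises of the list were called, and 17 rises with size factors of the DESeq2 kind. Over all alternatives the lowest log2 change was 0.93 for BTG4 and 0.79 for CNOT7, under the fold limit, and 1.34 for CNOT6L.

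Storage and cytoplasmic polyadenylation factors had 9 of 46 tested genes lower and 6 higher (19.6% and 13%, against 26.5% and 13.0% of all genes tested). ZAR1, an RNA-binding protein of the oocyte that holds stored mRNA, had 709, 507 and 454 CPM in the GV libraries and 93.7, 87.4 and 72.5 CPM in the MII libraries (log2 fold change -2.72, SE 0.23, adjusted p = 1.3e-09). PATL2, an oocyte repressor of translation, fell from 20.6 ± 6.62 to 3.24 ± 1.55 CPM (log2 fold change -2.65, with an adjusted p of 0.121 when all 18 transcriptomes and the pools were fitted together). PAPOLG, a poly(A) polymerase, had 797, 1083 and 871 CPM in the GV libraries and 2331, 2877 and 4806 CPM in the MII libraries (log2 fold change 1.86, SE 0.27, adjusted p = 4.9e-06). CPEB4, which binds cytoplasmic polyadenylation elements, had 23.3, 24.3 and 25.8 CPM in the GV libraries and 74.8, 67.5 and 55.2 CPM in the MII libraries (log2 fold change 1.43, SE 0.20, adjusted p = 2.7e-06). The losses of ZAR1 and the gains of PAPOLG and CPEB4 were each seen in every MII library.

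Of 34 tested genes of the MPF and MOS pathway 3 were lower (PLK1, RPS6KA1 and CCNE2) and 2 higher (TPX2 and BORA), shares of 8.82% and 5.88% against 26.5% and 13.0% of all genes tested. No call was made for 29, as for 6624 of all 10959 genes. PLK1, a mitotic kinase, had 149.7, 54.7 and 107 CPM in the GV libraries and 27.5, 28.9 and 18.7 CPM in the MII libraries (log2 fold change -2.05, SE 0.28, adjusted p = 1.5e-06). BORA, which helps Aurora A to activate PLK1, had 315, 475 and 352 CPM in the GV libraries and 943, 1120 and 1689 CPM in the MII libraries (log2 fold change 1.72, SE 0.25, adjusted p = 4.2e-06), and TPX2, an activator of Aurora A at the spindle, rose from 693 ± 130.2 to 1592 ± 338 CPM (log2 fold change 1.2, SE 0.23, adjusted p = 0.00015). CDK1, the kinase of M phase, was 325, 413 and 396 CPM in the GV libraries and 159, 192 and 234 CPM in the MII libraries. That difference passed the adjusted p threshold but not the fold limit (log2 fold change -0.95, SE 0.21, adjusted p = 0.00044). CCNB1 had a log2 change of 0.30 (adjusted p = 0.25), MOS 0.44 (0.068), CCNB2 -0.47 (0.078), AURKA 0.36 (0.23) and CDC20 0.13 (0.61), and the value of CDC20 changed sign with library totals alone. WEE2, the oocyte kinase that restrains CDK1, went from 480.3 ± 80.1 to 766 ± 90.5 CPM (log2 0.67, adjusted p = 0.0093), short of the fold limit.

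Genes of the anaphase-promoting complex and its checkpoint were 7 lower and 7 higher of 31 (22.6% each, against 26.5% and 13.0% of all genes tested). FBXO43, the inhibitor that keeps the complex off at metaphase II, had 44.0, 47.2 and 46.3 CPM in the GV libraries and 128, 115 and 159.6 CPM in the MII libraries (log2 fold change 1.55, SE 0.20, adjusted p = 6.3e-07), and all MII values lay above all GV values. With all 18 transcriptomes and the pools in the fit its adjusted p was 0.137. UBE2C, the ubiquitin-conjugating enzyme of the complex, rose from 361 ± 96.4 to 1037 ± 206 CPM (log2 fold change 1.52). MAD1L1, a checkpoint protein at kinetochores, fell from 35.5 ± 8.16 to 4.08 ± 0.439 CPM (log2 fold change -3.11, SE 0.26, adjusted p = 9.7e-10), and ANAPC13, a small subunit, fell from 329 ± 59.1 to 64.5 ± 16.1 CPM. PTTG1, securin, held 0.961% of counts in GV and 1.62% in MII. It had 6879, 11550 and 8759 CPM in the GV libraries and 19750, 13530 and 19330 CPM in the MII libraries (log2 fold change 0.95, adjusted p = 0.0079), just short of the fold limit. Without GV replicate C its adjusted p was 0.061.

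In the list of synaptonemal complex, recombination and cohesin genes, 10 of 27 tested were higher (37.0%, against 13.0% of all genes), 5 lower and 12 not called. The higher genes were STAG1, STAG2, RAD21, SMC3, PDS5A, PDS5B, NIPBL and WAPL of the cohesin ring or its loading and release, and HORMAD1 and TEX11 of the meiotic axis and recombination. STAG1 had 10.3, 10.6 and 7.73 CPM in the GV libraries and 32.6, 44.7 and 50.9 CPM in the MII libraries (log2 fold change 2.16, SE 0.24, adjusted p = 7.5e-08). The 5 lower genes included SYCE2, HORMAD2 and MEI1. SYCE2, of the central element of the synaptonemal complex, fell from 35.8 ± 10.0 to 6.28 ± 1.24 CPM (log2 fold change -2.50, SE 0.26, adjusted p = 3.3e-08). The GV and MII values did not overlap for STAG1 or SYCE2. The call of STAG1 was lost with all 18 transcriptomes and the pools in the fit (adjusted p = 0.0987). Among kinesin and spindle genes 11 of 75 were lower and 14 higher (14.7% and 18.7%, against 26.5% and 13.0% of all genes tested). KIF19, a motor of cilia, fell from 32.0 ± 4.72 to 1.38 ± 0.922 CPM (log2 fold change -4.49), CENPT, a kinetochore protein, fell from 65.0 ± 6.67 to 17 ± 0.617 CPM, and KIF2A, which takes tubulin off microtubule ends, rose from 22.1 ± 3.33 to 68.7 ± 7.79 CPM (log2 fold change 1.64). The calls of CENPT and KIF2A were lost with all 18 transcriptomes and the pools in the fit (adjusted p = 0.0843 and 0.0539).

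Of 18 oocyte markers 6 fell (FIGLA, ZAR1, NOBOX, ASTL, ZP3 and NPM2), 3 rose (DAZL, DPPA3 and OOSP2) and 9 were not called. The shares of 33.3% lower and 16.7% higher stand beside 26.5% and 13.0% of all genes tested. The call of OOSP2 was lost in both fits with all 18 transcriptomes (adjusted p up to 0.393). With library totals alone 8 of the 18 markers were lower and 0 higher, so that the 3 rises were not called. FIGLA, the transcription factor of zona genes, had 216, 263 and 224 CPM in the GV libraries and 60.8, 29.0 and 13.9 CPM in the MII libraries (log2 fold change -2.76, SE 0.33, adjusted p = 2.8e-07). Among the zona pellucida genes, ZP3 had 3178, 2217 and 2747 CPM in the GV libraries and 1557, 1005 and 694 CPM in the MII libraries (log2 fold change -1.32, SE 0.27, adjusted p = 0.00026), ZP4 went from 5880.5 ± 592 to 3319 ± 755 CPM (log2 -0.83, adjusted p = 0.008, short of the fold limit), and ZP2 had a log2 change of 0.36 (adjusted p = 0.21). Differences between these genes were not tested. NPM2, a histone chaperone, fell from 1165 ± 252 to 494 ± 110.1 CPM (log2 fold change -1.24, SE 0.23, adjusted p = 0.00011), and NLRP5, of the subcortical maternal complex, fell from 79.8 ± 16.3 to 25.7 ± 9.52 CPM (log2 fold change -1.64, SE 0.25, adjusted p = 7.2e-06). DPPA3, a protector of maternal methylation, had 2574, 3141 and 3933 CPM in the GV libraries and 6684, 5836 and 8226 CPM in the MII libraries (log2 fold change 1.10, SE 0.26, adjusted p = 0.001). DNMT1, the maintenance methyltransferase, rose from 240.3 ± 67.1 to 571 ± 97.1 CPM (log2 fold change 1.25, SE 0.23, adjusted p = 6.2e-05). The growth factors GDF9 and BMP15 had log2 changes of -0.54 (adjusted p = 0.057) and 0.22 (0.46), and the linker histone H1FOO and OOEP had -0.22 (0.37) and 0.07 (0.8). In the fit with all 18 transcriptomes the call of NPM2 was lost (log2 -1.03, adjusted p = 0.146), and that of NLRP5 when the pools were added to it (log2 -1.43, adjusted p = 0.24). The signs for BMP15 and OOEP turned with library totals alone.

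GPR3, the receptor that keeps cyclic AMP high in the arrested oocyte, was low in both stages, with 5.13, 2.78 and 1.78 CPM in the GV libraries and 0.800, 1.75 and 2.00 CPM in the MII libraries, and the groups overlapped (log2 fold change -1.11, SE 0.44, adjusted p = 0.036). This call was lost in 8 of 19 alternative fits, with an adjusted p of 0.012 to 0.637 over all of them, and at 0.358 without GV replicate A and 0.139 without MII replicate A. PDE3A, the phosphodiesterase that lowers cyclic AMP, went from 25.3 ± 3.97 to 37.7 ± 12.9 CPM (log2 0.57, adjusted p = 0.043), and DNMT3A and ZFP36L2 stayed under 6 CPM, at log2 changes of -0.18 (adjusted p = 0.66) and 1.05 (0.061).

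**Figure D3:**
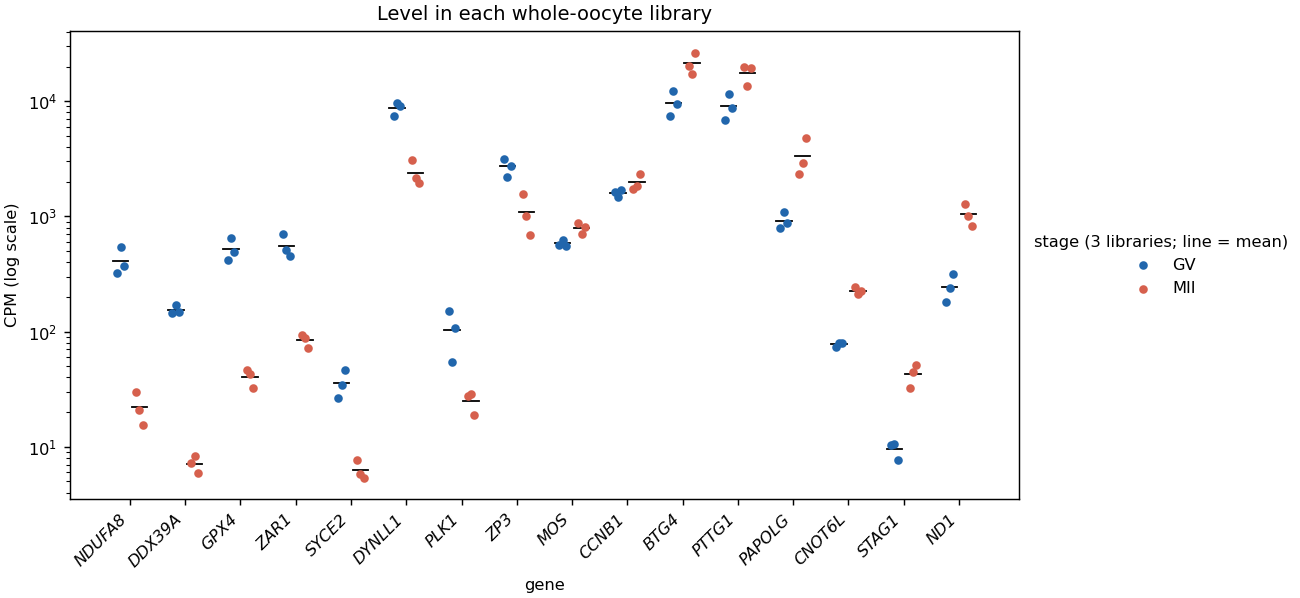
Level of 16 genes in each of the 3 GV (blue) and 3 MII (red) whole-oocyte libraries, in CPM on a log axis, with a line at each mean. NDUFA8, DDX39A, GPX4, ZAR1, SYCE2 and DYNLL1 lie lower in every MII library, BTG4, PTTG1, PAPOLG, CNOT6L, STAG1 and ND1 higher, and MOS and CCNB1 lie close together.

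Of the 10 genes with most counts in GV, 2 fell, 1 rose and 7 were not called. UBB, a ubiquitin gene, led with 1.84% of counts in GV and 1.24% in MII (log2 -0.38, adjusted p = 0.26). DYNLL1, a light chain of dynein, had 7440, 9603 and 9148 CPM in the GV libraries and 3059, 2168 and 1939 CPM in the MII libraries (log2 fold change -1.87, SE 0.27, adjusted p = 4.2e-06), so that its share of counts went from 0.931% to 0.224%. GSTM3, a glutathione transferase, fell from 7130.2 ± 1833 to 3058 ± 1305 CPM (log2 fold change -1.22, SE 0.30, adjusted p = 0.0013), a call that was lost in both fits with all 18 transcriptomes (adjusted p up to 0.265). BTG4 is the one that rose. PAIP1, which binds the poly(A)-binding protein, AURKA, CALM2 and ZP2 differed by less than the test could call, with log2 changes of 0.36, 0.36, 0.48 and 0.36 (adjusted p = 0.27, 0.23, 0.12 and 0.21).

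Among genes already at 20 CPM or more in GV, a set chosen after the values were seen, the largest rises were those of MCF2, HAS2, SERPINE2, OBI1, USP53, ND1, SPRED2, MAPK6, GTF2H3, SLC44A5, SESTD1, ITGB1, STIL, DBT and F3. MCF2, a guanine nucleotide exchange factor, had 22.6, 21.5 and 20.8 CPM in the GV libraries and 76.7, 122 and 206 CPM in the MII libraries (log2 fold change 2.64, SE 0.27, adjusted p = 2.8e-08). ITGB1, an integrin subunit, rose from 252 ± 17.1 to 986 ± 205 CPM, STIL, needed to copy centrioles, rose from 36.4 ± 3.01 to 141 ± 53.1 CPM, and MAPK6, an atypical MAP kinase, rose from 54.9 ± 7.42 to 227 ± 66.7 CPM. HAS2 and SERPINE2 also stand in the cumulus cell list. With all 18 transcriptomes and the pools in the fit, HAS2, SESTD1 and STIL lost the threshold (adjusted p = 0.0562, 0.0525 and 0.0879).

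The rises of genes absent or nearly absent in GV were of another kind. The 15 largest rises with at least 20 CPM in MII were POSTN, LUM, TMEM176B, CSRP3, MX1, IFITM3, ISG15, TNFAIP6, IFITM1, IFI6, RARRES2, OAS1Y, TSPAN6, FST and FOS. POSTN and LUM, proteins of connective tissue matrix, had 0 counts in all 3 GV libraries and 1240 and 1195 counts in the MII libraries together. Against a floor of 3 counts over the 3 GV libraries, 0.0922 CPM, they were at least 435-fold and 419-fold higher. TMEM176B, CSRP3, MX1 and ISG15 were also at 0 in GV, at least 424-fold, 364-fold, 326-fold and 292-fold higher. MX1, ISG15, IFITM1, IFITM3, IFI6 and OAS1Y belong to the genes that interferon induces. IFITM3 had 0, 0 and 0.104 CPM in the GV libraries and 69.9, 167 and 74.3 CPM in the MII libraries, and its ratio of counts scaled by library was 3485 (95% interval 625 to 137700). TNFAIP6, which builds the hyaluronan matrix of the expanded cumulus, had 0.151, 0 and 0 CPM in the GV libraries and 71.6, 127 and 127 CPM in the MII libraries, a ratio of 1775 (95% interval 491 to 14660). MII replicate B was the highest of the 3 for all 6 interferon genes, and also for CSRP3, RARRES2, FST and FOS. LUM and POSTN were highest in MII replicate C. FOS, an immediate early transcription factor, had 0.679, 0.309 and 0.104 CPM in the GV libraries and 14.6, 31.1 and 17.1 CPM in the MII libraries (log2 fold change 5.69, SE 0.44, adjusted p = 4.5e-10).

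Markers of cumulus and granulosa cells rose with these genes. Of 26 such markers 17 were tested, 10 were higher, 2 lower (STAR and CD44), and the median was 1.40. The shares were 58.8% higher and 11.8% lower, against 13.0% and 26.5% of all genes tested. Markers under 1 CPM in GV, as TNFAIP6 and CYP11A1, passed the filter mostly through their MII counts. Of all 356 tested genes at that level 55.6% were higher, so 13.0% is too low a measure for these markers. The call of CD44 was lost in both fits with all 18 transcriptomes (adjusted p up to 0.478). The 10 were TNFAIP6, CYP11A1, INHA, INHBA, PTX3, HAS2, SERPINE2, VCAN, PTGS2 and GJA1. CYP11A1, the first enzyme of steroid synthesis, went from 0.0348 ± 0.0603 to 14 ± 4.28 CPM, a ratio of 463 (95% interval 82.7 to 18330), and HAS2, the hyaluronan synthase of cumulus expansion, had 27.1, 34.5 and 38.9 CPM in the GV libraries and 148, 158 and 166 CPM in the MII libraries (log2 fold change 2.23, SE 0.20, adjusted p = 4.5e-09). Some defining markers of these cells stayed at or near 0 counts, as FOXL2 had 0 counts in all 6 libraries, FSHR 0 to 2 in GV and 1 to 3 in MII, and AMHR2 at most 1 in either stage. Others were counted in both stages over ranges that overlap. CYP19A1 had 37 to 41 counts in GV and 28 to 44 in MII, and HSD3B1 had 3 to 8 and 4 to 12. The summed level of the list was 653 to 804 CPM in GV and 742 to 1079 CPM in MII, ranges that overlap, since STAR alone had 618, 482 and 543 CPM in the GV libraries and 159.9, 172 and 136 CPM in the MII libraries. Between 5 and 8 of the 26 genes had no count in a GV library and 2 or 3 in an MII library. Per the study's methods, cumulus cells had been stripped from the oocytes, which were checked for other cells before freezing and passed. Counts in a pool of oocytes do not tell cumulus RNA from oocyte RNA, and the part of other cells in the rises was not tested.

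Immediate early and stress genes had 6 of 17 tested genes higher (35.3%, against 13.0% of all genes tested) and 2 lower (11.8%, against 26.5%). The 2 were FOSL1 and HSPA1A, each lost with all 18 transcriptomes and the pools in the fit, at an adjusted p of 0.318 and 0.216. EGR1 had 0.754, 0.617 and 0.941 CPM in the GV libraries and 12.6, 23.6 and 11.6 CPM in the MII libraries (log2 fold change 4.36, SE 0.38, adjusted p = 2.5e-09), and the small heat shock protein HSPB1 had 5.51, 5.25 and 4.39 CPM in the GV libraries and 53.6, 62.3 and 56.0 CPM in the MII libraries (log2 fold change 3.50, SE 0.23, adjusted p = 5.1e-11). FOS and EGR1, under 1 CPM in GV, passed the filter mostly through their MII counts, and 55.6% of all tested genes at that level were higher. The median of the list was 0.22, and 0.0092 with library totals alone. Of 16 markers of connective tissue, blood and vessel cells 7 were tested, with LUM and DCN higher and HBM lower. The vessel, leukocyte and fibrillar collagen markers CDH5, PTPRC and COL3A1 were at 0 to 2 counts in every GV and MII library. COL1A1, another fibrillar collagen, had 0 counts in GV and 1 to 3 in MII, and COL1A2 had 14 to 28 counts in GV and 19 to 30 in MII, ranges that overlap.

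The same genes were followed across the later stages, with levels scaled over all 18 transcriptomes and given as a description. For the 198 genes called higher from under 1 CPM in GV, the median was 0.455 CPM in GV and 3.52 in MII. It was 0.421 CPM at the 2-cell stage and 28.5 CPM at the 8-cell stage, then 2.97 CPM for morulae and 2.39 CPM for blastocysts. Of these genes 118 were highest in 8-cell embryos and 25 in MII. LUM averaged 46.5 CPM in MII, 0.809 at the 2-cell stage and 3720 at the 8-cell stage, and MX1 averaged 34.6, 0.0259 and 168 CPM. TNFAIP6 averaged 129, 0.158 and 30.3 CPM, and so differed from the others in that MII was above the 8-cell stage. Carry-over of RNA or reads from 8-cell to MII libraries was not tested, and the MII values of LUM, POSTN, MX1, ISG15 and the other genes near 0 in GV are to be read with that limit.

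**Figure D4:**
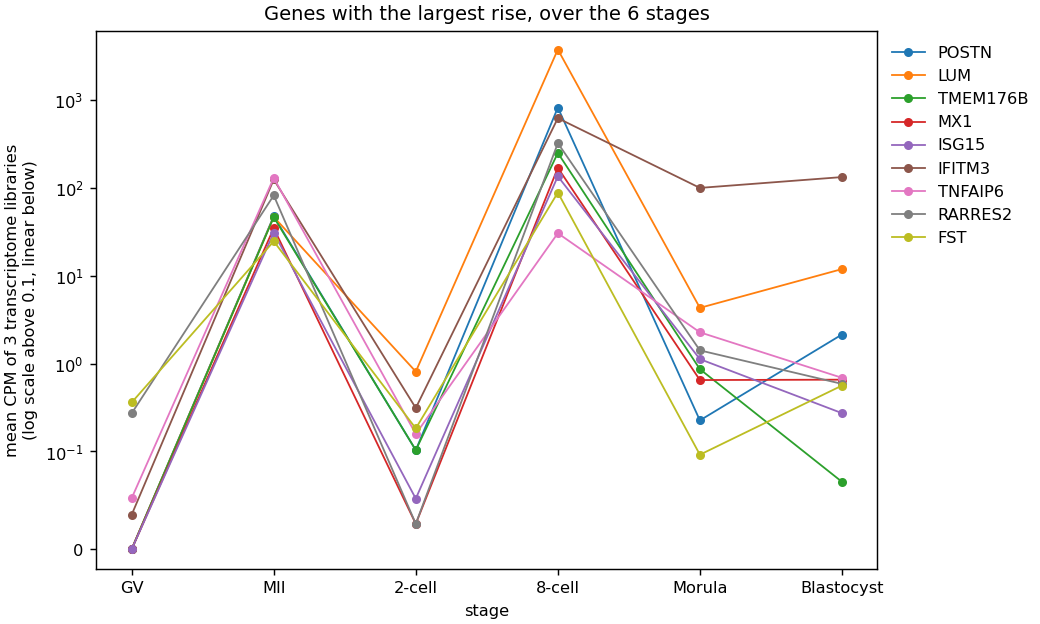
Mean CPM of 9 of the genes with the largest rise (vertical axis, logarithmic above 0.1 CPM and linear below) in the transcriptome libraries of the 6 stages, 3 libraries a stage. All 9 are under 1 CPM in GV and in 2-cell embryos, between 24.5 and 129 CPM in MII, and 8 of the 9 are highest in 8-cell embryos.

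Genes called lower were chosen for a high GV level, and the later stages were set against that same GV mean, so the next counts are a description. Of the 2907 genes, 84.8% were at or below their GV mean in 2-cell embryos, 70.6% in 8-cell embryos and 64.1% in blastocysts, against 49.6%, 55.4% and 58.6% of all genes tested, and the median went from 17.2 CPM in GV to 5.20 in MII, 9.60 at the 2-cell stage and 12.6 in blastocysts. ZAR1 averaged 572 CPM in GV, 101 in MII, 162 at the 2-cell stage and 3.82 at the 8-cell stage. NDUFA8 averaged 422 CPM in GV, 26.3 in MII and 134 at the 2-cell stage. PLK1 averaged 107, 29.8 and 119.7 CPM in the same order, so that its 2-cell level was near that of GV. Of the 1428 genes called higher, chosen in turn for a low GV level, 84.9% were at or above their GV mean in 2-cell embryos, against 50.4% of all genes tested. BTG4 averaged 9939 CPM in GV, 25260 in MII, 11360 at the 2-cell stage and 1484 at the 8-cell stage.

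Polysome fractions gave a second view of the same step. Counts of fractions F8 to F10, the heaviest of 10 in a sucrose gradient and those the study takes as polysomes, were summed in each of 2 gradients per stage, and 12726 genes were tested together with the whole-oocyte libraries. In the pools 1099 genes (8.64%) were lower in MII and 958 (7.53%) higher. These counts rest on single pools to a large degree: without GV pool A they were 677 and 429, without GV pool B 630 genes were higher, and without MII pool A 1891 were lower. With library totals alone 1857 were lower and 491 higher.

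Most genes called lower in whole oocytes were not called lower in the pools. Of the 2907 genes lower in whole MII oocytes, 381 (13.1%) were lower in the pools and 204 (7.02%) higher, and their median log2 change there was -0.10, against -0.01 for all 10959 genes. Of the 1428 genes higher in whole oocytes, 127 (8.89%) were higher in the pools and 70 (4.90%) lower. Genes with no call in whole oocytes were lower in the pools in 8.56% and higher in 8.38%. Genes near 0 in whole GV oocytes were not alike in the pools. IFITM1 had 0 and 0.0283 CPM in the GV pools and 28.5 and 63.8 CPM in the MII pools. IFITM3 had 1.34 and 1.36 CPM in the GV pools and 47.7 and 135.7 CPM in the MII pools, and both were called higher. POSTN, CSRP3, MX1, ISG15, IFI6, RARRES2, OAS1Y and FST were called higher there as well. Among these the levels could be low, as CSRP3 had 1.23 and 0.365 CPM and OAS1Y 0 and 2.70 CPM in the MII pools. LUM, at 0 and 2.52 CPM in the MII pools, and FOS were not called. Carry-over was not tested in the pools either. NDUFA8, with a whole-oocyte log2 change of -4.22, had 551 and 437 CPM in the GV pools and 345 and 521 CPM in the MII pools (log2 fold change -0.19, SE 0.34, adjusted p = 0.74), and IMP4, at -4.20 in whole oocytes, had 235 and 265 CPM in the GV pools and 204 and 394 CPM in the MII pools (log2 fold change 0.26, SE 0.29, adjusted p = 0.58). TMEM177 fell in both, with 264 and 252 CPM in the GV pools and 37.2 and 54.8 CPM in the MII pools (log2 fold change -2.49, SE 0.35, adjusted p = 0.001). Mitochondrial ribosomal protein genes had 8 of 78 lower and 18 higher in the pools (median 0.24), and of their 44 whole-oocyte losses 7 were lower and 10 higher there. Oxidative phosphorylation genes had 3 of 82 lower and 14 higher in the pools (median 0.36), and cytosolic ribosomal protein genes 2 of 81 lower and 20 higher (median 0.48).

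The difference between the change in the pools and the change in whole oocytes was tested for each gene, and 3770 of 12726 genes (29.6%) passed the threshold. ZP3, which fell in whole oocytes, had 6051 and 10080 CPM in the GV pools and 26140 and 51270 CPM in the MII pools (log2 fold change 2.26, SE 0.41, adjusted p = 0.0034), a difference of log2 3.57 (SE 0.52, adjusted p = 0.00046). ZP4 had 1796 and 3239 CPM in the GV pools and 12130 and 9483 CPM in the MII pools, a difference of 2.91 (SE 0.39, adjusted p = 0.00026), and NPM2 one of 2.31 (SE 0.44, adjusted p = 0.0021). All 3 were higher in both MII pools than in both GV pools. UBB had 8349 and 10740 CPM in the GV pools and 24480 and 24860 CPM in the MII pools (log2 fold change 1.37, SE 0.26, adjusted p = 0.004), and OOEP had 963 and 1533 CPM in the GV pools and 3505 and 3962 CPM in the MII pools (log2 fold change 1.58, SE 0.31, adjusted p = 0.0052). PLK1 was 1230 and 1256 CPM in the GV pools and 3089 and 1457 CPM in the MII pools, not called in the pools (log2 fold change 0.87, SE 0.42, adjusted p = 0.18), with a difference of 2.90 (SE 0.56, adjusted p = 0.0022). In the other direction, DNMT1, higher in whole MII oocytes, had 240.3 and 266 CPM in the GV pools and 136 and 152 CPM in the MII pools (log2 fold change -0.82, SE 0.28, adjusted p = 0.061), a difference of -2.09 (SE 0.36, adjusted p = 0.0013). CNOT6L had 18.1 and 26.0 CPM in the GV pools and 16.9 and 21.2 CPM in the MII pools, values that overlap, and a difference of -1.77 (SE 0.33, adjusted p = 0.0019), and FBXO43 one of -1.72 (SE 0.47, adjusted p = 0.015). BTG4, DPPA3 and CNOT7 had pool log2 changes of 0.50, 0.36 and 0.26 (adjusted p = 0.3, 0.36 and 0.53). CDK1 was lower in the pools past the fold limit, with 42.8 and 57.5 CPM in the GV pools and 17.5 and 25.5 CPM in the MII pools (log2 fold change -1.22, SE 0.29, adjusted p = 0.013). The pools and the whole oocytes are separate libraries, and a share of the pool counts is relative to the mRNAs in polysomes alone.

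**Figure D5:**
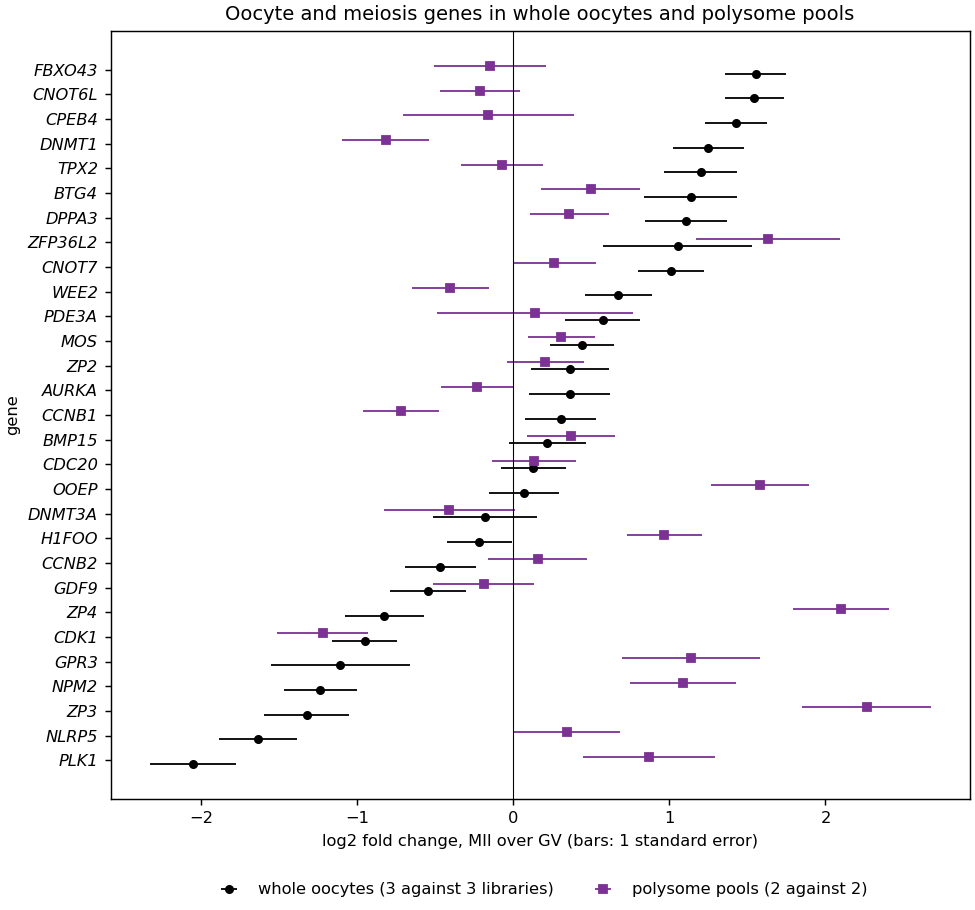
Log2 fold change from GV to MII with 1 standard error for 29 oocyte and meiosis genes, in whole oocytes (black circles, 3 against 3 libraries) and in polysome pools (purple squares, 2 against 2). ZP3, ZP4 and NPM2 lie below 0 in whole oocytes and above 0 in the pools, and DNMT1 lies above 0 in whole oocytes and below 0 in the pools.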

How the data were processed

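RNA of whole oocytes and of gradient fractions was sequenced from Smart-seq libraries, which prime on poly(A). Per the labels, the authors quantified genes with Salmon, whose version was not given in the sources used here. The labels name genome build UMD3.1 and the methods ARS-UCD1.2, so no coordinates are given. The values the authors deposited are estimated counts per gene symbol, not normalized, of which 11.7% were not whole. They were rounded for edgeR and DESeq2.

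Groups were taken from stage labels. MII was tested against GV (3 and 3 libraries) with edgeR 4.0.16 in R 4.3.3, by quasi-likelihood with TMM factors and filterByExpr. A gene was called at a Benjamini-Hochberg adjusted p below 0.05 and a fold change above 2. All p-values are two-sided. Polysome pools (F8 to F10, 2 gradients per stage) entered 1 model with these libraries, and the difference of changes was its interaction. SE is the log2 change over the root of F. CPM uses TMM-scaled totals. Alternatives used the likelihood ratio test, DESeq2 1.42.0, limma 3.58.1, other scalings, filters and samples. The fit was tested on simulated data drawn from these 6 libraries, where 67.3% of 2-fold and 94% of 4-fold changes passed the adjusted p threshold. The changed genes there were far fewer than the calls here and about equal up and down, so the scaling was not tested for an uneven change. A floor of 3 counts over the group bounds folds against 0, intervals are exact (95%), and both cover counting error only, since reads carry no molecular identifiers.

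The members and lists were chosen with earlier results of these data known. Genes named are 29 fixed genes, the 15 largest changes per direction that do not overlap between groups at 20 CPM or more, up to 2 per list and direction at 5 CPM or more, and the 10 genes with most counts in GV. Where all called members of a list are named, nothing was selected. Each of the 138 columns was matched to a sample by name, and no library pair held identical values. Some genes that the rule names are not reported here.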

Additional observations from a re-analysis of the deposited data

Results flagged for a closer look

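The change from GV to MII differed between polysome pools and whole oocytes in 3770 genes by the interaction test of edgeR (adjusted p below 0.05). The test was also read for 35 genes, the 29 fixed genes and the 10 with most counts in GV, which share 4, and 17 of them passed. The change in the pools was above that in whole oocytes for 11 genes and below it for 6, and each value is the log2 change in pools minus that in whole oocytes. Among zona and oocyte genes it was 3.57 for ZP3, 2.91 for ZP4, 2.31 for NPM2, 1.96 for NLRP5, 1.49 for OOEP and 1.17 for H1FOO. It was 2.90 for PLK1 and 2.22 for GPR3, which was low in both stages. Among the other genes with most counts it was 2.48 for GSTM3, 1.73 for UBB and 1.30 for DYNLL1. The pools moved less than whole oocytes, or the other way, for DNMT1 at -2.09, CNOT6L at -1.77, FBXO43 at -1.72, TPX2 at -1.29, WEE2 at -1.10 and CCNB1 at -1.04. Groups of 3 libraries were not examined for single libraries far from the rest.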

How the results depend on the processing

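The 2907 lower and 1428 higher genes stayed within 1.5 times under all alternatives run except these: 870 higher with library totals alone, 2261 higher with all 18 transcriptomes in the fit, and 1531 lower with the 12 polysome pools added. Leaving out 1 library gave 2671 to 3045 lower and 1294 to 1829 higher genes. In the pools, library totals alone gave 1857 lower and 491 higher genes, and leaving out 1 pool gave 677 to 1891 lower and 429 to 1405 higher genes, with the lone pool assumed to vary like the other groups. A difference between pools and whole oocytes was called for 2760 to 4876 genes with 1 pool left out. With only genes at 1 CPM or more in GV, a fit chosen after seeing the data, 2856 genes were lower and 1338 higher. Whether the replicate letters pair the samples was not given in the sources used here. Deviations from the stage means correlated at -0.05, -0.15 and 0.02 for A, B and C, and 3 libraries a stage cannot settle it. With the letter as a replicate block 2892 genes were lower and 1411 higher, and in the pools 822 lower, 651 higher and 3150 with a difference. Of 3247 values of 172 named genes under alternatives, 3152 kept their direction and side of the adjusted p threshold. The fold limit was not part of that comparison. The lowest log2 change was 0.93 for BTG4, 0.90 for DPPA3 and 0.79 for CNOT7, which is under the fold limit. With the pools added 36 genes lost the adjusted p threshold, among them HAS2 (0.056), STAG1 (0.099) and FBXO43 (0.137). The cause was not tested. Signs turned with library totals for BMP15 (-0.0062), CDC20 (-0.10) and OOEP (-0.11), and for DNMT3A with 18 transcriptomes (0.026) and with pools (0.030). They also turned on leaving out 1 library, where values ranged from -0.12 to 0.37 for OOEP and from -0.46 to 0.080 for DNMT3A. Of 1140 list counts, 1016 stayed within 1.5 times. With 9069383 counts or more a library and 3 libraries a stage, a gene without a call may still have changed.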

Other observations

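Other groups had values not yet described, to be read beside the 26.5% lower and 13.0% higher of all genes tested. The shares lower and higher were 29.8% and 10.6% for proteasome subunits and 28.4% and 10.8% for chaperones, near those of all genes. They were 20% and 26% for nucleoporins and transport receptors, and 7.69% and 11.5% for spliceosome genes. Of 47 tested proteasome subunits 14 fell and 5 rose, among them PSMF1, an inhibitor subunit, from 60.6 to 4.74 CPM, and PSMA2, a core subunit, from 8.39 to 42.1 CPM. Of 74 chaperone genes 21 fell and 8 rose, and CCT3, of the cytosolic chaperonin, fell from 767 to 133 CPM. Nucleoporins and transport receptors had 10 of 50 genes lower and 13 higher. KPNA2, an import receptor, fell from 2406 to 578 CPM, and XPOT, the exporter of tRNA, rose from 22.0 to 65.3 CPM. Of 52 spliceosome genes 4 fell and 6 rose, with SF3B5 lower and CDC5L and SRSF3 higher.

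Calcium and egg activation genes had 6 of 23 tested lower and 4 higher (26.1% and 17.4%, against 26.5% and 13.0% of all genes tested). CALM3, a calmodulin gene, fell at log2 -3.26 (SE 0.23), while CALM2 was not called at 0.48. CD9, needed for gamete fusion, rose at log2 1.33, and ORAI1, a calcium channel, fell at -2.15. DNA replication and repair genes had 17 of 77 lower and 9 higher, with FANCG lower at log2 -3.60 and MRE11 higher, from 144 to 408 CPM. Lysosome genes had 7 of 43 lower and 5 higher (16.3% and 11.6%). Cholesterol and lipid storage genes had 12 of 33 lower and 5 higher (36.4% and 15.2%). Cyclic AMP and cyclic GMP control genes had 3 of 23 lower and 5 higher (13% and 21.7%). Subcortical maternal complex and maternal effect genes had 6 of 21 lower and 1 higher (28.6% and 4.76%).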
